A study of Mus musculus with 2 samples.

Results

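Cytosolic ribosomal protein genes encode the protein components of the ribosomes that translate nuclear-encoded messages. They were chosen by symbol among the protein-coding genes of GENCODE M21 on mm10: Rpl or Rps with a number and an optional letter or l ending, plus Rplp0, Rplp1, Rplp2 and Rpsa, with the Rps6k kinases left out. This gave 81 of 21829 genes, of which 47 encode large subunit proteins, 31 small subunit proteins and 3 the stalk of the large subunit. Fau and Rps3a1 also encode ribosomal proteins, but their symbols fall outside this pattern and they are set apart below. Chromatin accessibility was measured by DNase-seq, which maps where the nuclease DNase I cuts DNA in isolated nuclei. The 2 samples are cerebellum of male B6CASTF1/J mice, first-generation hybrids between C57BL/6J and the CAST strain, aged 36 days. Both samples form 1 group with no treatment and no control, so every comparison below is between gene families within a sample. The labels call the samples biological replicates 1 and 2, yet a single donor is entered for both. Whether they come from 2 separate mice is thus not certain, and biological and technical spread between them cannot be told apart. With this limit they are called the 2 animals below. Paired values stand in the order replicate 1, then replicate 2.

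A ribosome holds a single copy of most of its proteins, so their genes are transcribed in every cell type and are often studied as a group whose output is balanced. Their messages are known for a 5′ terminal oligopyrimidine (TOP) tract, a cytosine at the start followed by an unbroken run of pyrimidines, through which the kinase mTOR and the RNA-binding protein LARP1 control translation. Their promoters in mammals are known to be CpG-rich, with starts that lie in pyrimidine stretches and binding sites of general factors such as GABP of the ETS family, SP1 and YY1. In neurons, ribosomal proteins are made for both the cell body and the processes, and the cerebellum is dominated by granule neurons.

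Replicates 1 and 2 had 140127 and 114404 peaks and 342409 and 262603 footprints, and sequencing depth is otherwise unknown. The labelled tissue was checked by promoter peaks at marker genes. All 7 granule neuron genes and 3 of 4 Purkinje neuron genes had one in each animal, and 4 and 3 of 4 astrocyte, 2 and 1 of 3 oligodendrocyte and 3 and 1 of 3 endothelial genes did. Over all protein-coding genes the shares were 67% and 63.5%. Peak height was ranked as a percentile among promoters with a peak. Its median was 65.8 and 66.7 at the granule and 64.2 and 68.4 at the Purkinje genes. It was 10.7 and 12.9 at the astrocyte, 19.3 and 26.2 at the oligodendrocyte and 2.82 and 5.69 at the endothelial genes. No peak was found at 3 microglial genes, 3 choroid plexus genes and 8 genes of liver, muscle, blood and forebrain. Cells of all types were measured together, so a high peak in some cells and a moderate one in all cells cannot be told apart.

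The promoters of 5 genes are shown because they mark the range of the data: the genes with the highest mean peak height, Rpl7a, Rplp0 and Rpl36al, the genes with the widest footprint over the start in both animals, Rps15a and again Rpl36al, and Rps4x, the gene with the lowest mean height among those with a peak in both animals. A footprint is a short stretch that is protected from cutting inside accessible DNA. The letters are those of the mm10 (GRCm38.p6) reference, not of the CAST allele, and run 5′ to 3′ on the gene's strand from 120 bp before to 15 bp after the reference start, which was the start of the best supported principal transcript. Capitals mark bases that lay in a footprint in both animals. Rpl7a is at chr2:26910644-26910779 (plus strand), Rplp0 at chr5:115559347-115559482 (plus strand), Rpl36al at chr12:69184068-69184203 (minus strand), Rps15a at chr7:118116173-118116308 (minus strand) and Rps4x at chrX:102189379-102189514 (minus strand).
Rpl7a: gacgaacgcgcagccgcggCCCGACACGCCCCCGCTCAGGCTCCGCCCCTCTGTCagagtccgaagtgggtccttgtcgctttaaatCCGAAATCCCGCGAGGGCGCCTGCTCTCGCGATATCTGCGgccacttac
Rplp0: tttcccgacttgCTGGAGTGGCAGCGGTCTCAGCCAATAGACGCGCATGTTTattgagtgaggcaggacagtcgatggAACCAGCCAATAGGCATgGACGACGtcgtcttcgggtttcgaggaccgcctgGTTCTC
Rpl36al: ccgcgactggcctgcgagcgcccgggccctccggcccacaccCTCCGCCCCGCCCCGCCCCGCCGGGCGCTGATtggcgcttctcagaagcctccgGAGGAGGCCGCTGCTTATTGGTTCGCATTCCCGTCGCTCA
Rps15a: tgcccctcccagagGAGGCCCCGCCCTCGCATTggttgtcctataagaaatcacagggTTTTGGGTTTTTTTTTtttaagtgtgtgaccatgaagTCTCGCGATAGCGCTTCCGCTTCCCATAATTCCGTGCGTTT
Rps4x: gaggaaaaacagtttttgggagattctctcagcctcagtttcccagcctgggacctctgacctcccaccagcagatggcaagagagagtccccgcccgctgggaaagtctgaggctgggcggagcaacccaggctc
In Rpl7a 76 of the 136 printed bases lay in a footprint in both animals, in Rplp0 70, in Rpl36al 72 and in Rps15a 76, against 0 in Rps4x. The capitals of Rpl7a, Rpl36al and Rps15a run across the start, 15 bases before the end of each line, while those of Rplp0 leave the start itself uncovered.

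Nearly all ribosomal protein promoters were accessible. A peak overlapped the promoter, defined as 1000 bp on both sides of any annotated protein-coding start, at 79 and 78 of the 81 genes (97.5% and 96.3%), against 14627 and 13870 of 21829 protein-coding genes (67% and 63.5%). In both animals together the count was 78 of 81, against 62.9% of all genes. The mitochondrial ribosomal protein genes, which encode a separate ribosome inside the organelle, had a peak at 78 of 78, and the proteasome subunit genes, another family of stoichiometric complex members, at 46 of 49 in each animal. The exceptions among cytosolic genes were 3 tissue-restricted paralogs. Rpl10l, which replaces Rpl10 during male meiosis in the mouse, and Rpl3l, the paralog of Rpl3 in striated muscle, had no peak in either animal. Rpl39l, known from the testis, had a peak of height 0.173 in replicate 1, at percentile 0.472 of that animal's promoters with a peak, and none in replicate 2. The 76 genes whose symbols do not end in l all had a peak in both animals.

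The peaks at these promoters were also high. Height is the value the authors deposited for each peak, on a scale the sources used here do not state, so it is ranked within an animal. The strongest promoter peak of the ribosomal protein genes had a median height of 14.9 and 11.1, against 9.10 and 6.65 over all protein-coding genes with a peak. As percentiles among promoters with a peak, the medians were 70.6 and 74.6, a mean of 72.6 ± 2.9 (SD, n = 2). Of the genes with a peak, 65 of 79 and 64 of 78 stood above the median of all promoters, and 14 and 15 stood in the top 10%. Only 1 gene in replicate 1, Rpl39l, and 0 in replicate 2 stood below percentile 25. Over the 78 genes with a peak in both animals, the heights ranked alike (Spearman's rho 0.887, across genes of the same genome and so not independent), and 76 of the 78 strongest peaks overlapped between the animals. Neither value is set beside the same over all genes, so neither sets the family apart. Heights were higher in replicate 1 at 72 of 78 genes, with a median ratio of 1.44, against 1.51 over all genes with a peak in both animals.

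**Figure D1:**
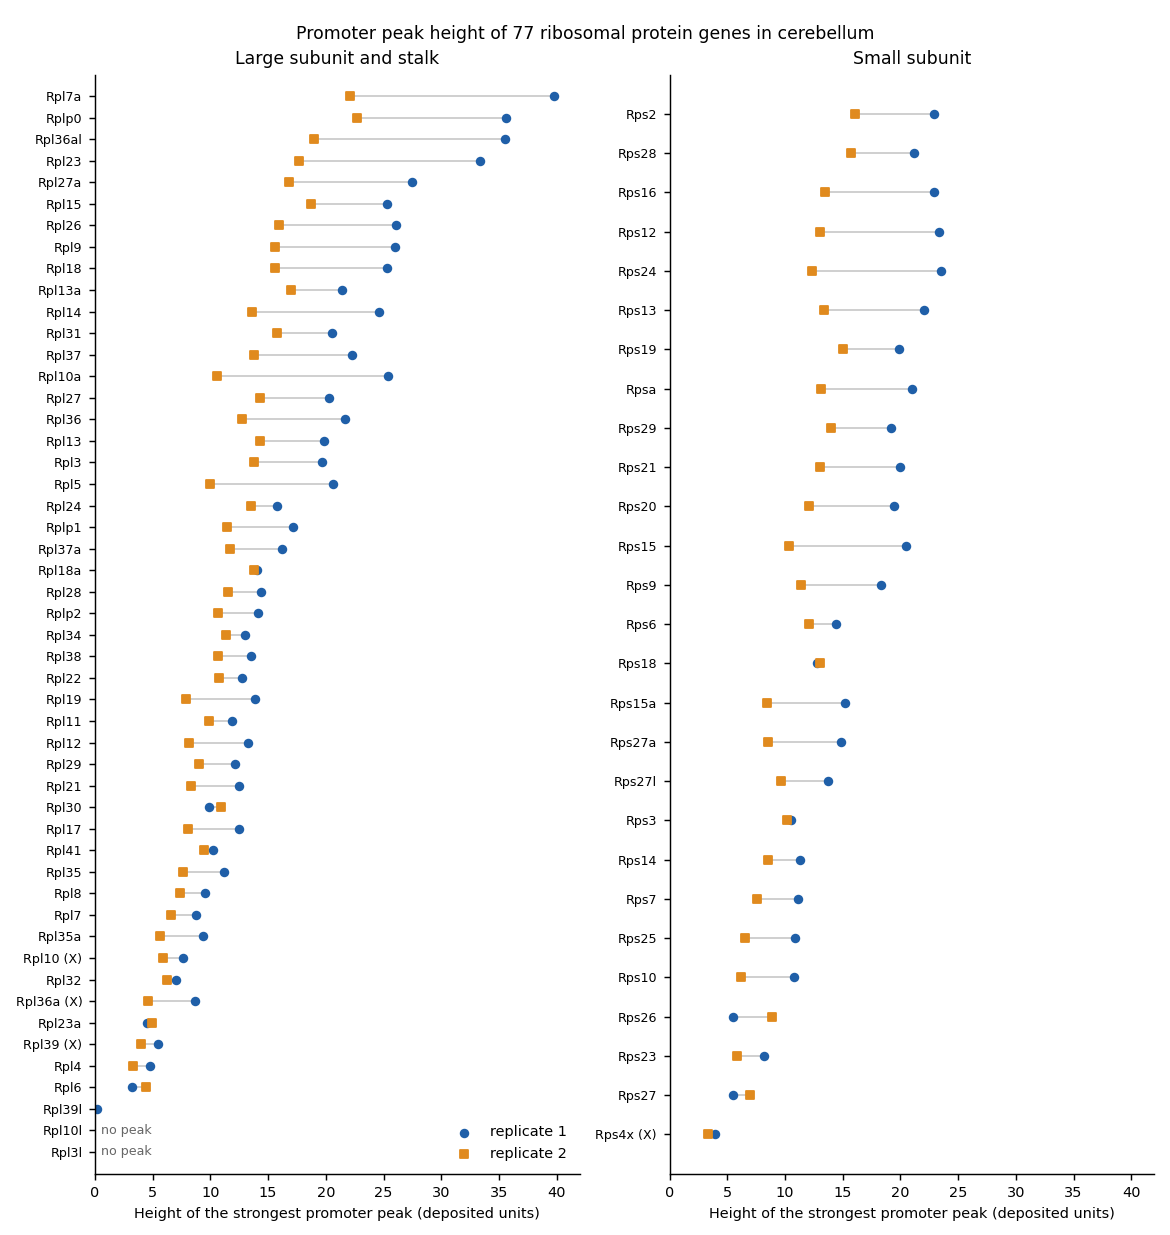
Height of the strongest promoter peak (x axis, deposited units) of 77 ribosomal protein genes (y axis, highest mean at the top), large subunit and stalk on the left, small subunit on the right. Circles are replicate 1 and squares replicate 2; Rpl7a, Rplp0 and Rpl36al lead, and the 4 genes on the X chromosome, marked (X), lie in the lower part of both panels.

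The large subunit genes had a median height of 13.9 and 10.8. Rpl7a was highest on average, with 39.8 and 22.1 (percentiles 99.5 and 98.9). Its window is shared with Med22, a Mediator subunit gene read from the opposite strand, and the same peak was the strongest of both genes. Rpl36al, the autosomal paralog of the X-linked Rpl36a, had 35.5 and 18.9, and its peak was likewise also the strongest of the neighbouring Mgat2. Both genes therefore carry a height that cannot be assigned to them alone, as do 15 members in all whose strongest peak was also the strongest of another gene. Rpl23, whose product can also bind the p53 regulator Mdm2, had 33.4 and 17.7 with no other protein-coding gene in its window, and Rpl27a had 27.5 and 16.8, also unshared. Rpl15 (25.3 and 18.7, shared with Nkiras1), Rpl26 (26.1 and 15.9) and Rpl9 (26.0 and 15.6, shared with Lias) followed. The peak counted for Rpl18 (25.3 and 15.6) began at -2830 bp, counted from its reference start with upstream positions negative, at another annotated start, and was also the strongest peak of Sphk2.

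The low end of the large subunit held Rpl6 (3.20 and 4.42), Rpl4 (4.76 and 3.26), Rpl39 (5.46 and 3.98) and Rpl23a (4.53 and 4.93). Rpl23a lies at the exit of the tunnel through which new proteins leave the ribosome, and Rpl39 lines that tunnel. The order of these 4 genes differed between the animals, since Rpl6 was the lowest of them in replicate 1 and Rpl4 in replicate 2. Rpl5 and Rpl11, which together carry a small ribosomal RNA into the ribosome and can bind Mdm2, had 20.6 and 9.96, and 11.9 and 9.88. Rpl5 thus had a higher peak than Rpl11 in replicate 1, while in replicate 2 their heights were nearly equal.

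The small subunit genes had a median height of 18.3 and 11.4 and all 31 had a peak in both animals. Their range, 3.93 to 25.3 in replicate 1 and 3.30 to 16.4 in replicate 2, lay within that of the large subunit genes with a peak. Rps2 had 22.9 and 16.1, in the upper part of that range. Rpsa, which encodes a ribosomal protein first described as a laminin receptor, had 21 and 13.1. Rps6, the substrate of the S6 kinases downstream of mTOR, had 14.4 and 12.1, below the median of the small subunit in replicate 1 and above it in replicate 2. Rps4x was lowest, with 3.93 and 3.30.

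The stalk proteins recruit the elongation factors that drive translation. Rplp0, the base of the stalk, had 35.6 and 22.7, second and first of all 81 genes in the 2 animals. Its partners Rplp1 (17.2 and 11.4) and Rplp2 (14.1 and 10.6) stood near the median of the family. All 3 genes were above the median of all promoters in both animals.

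Paralog pairs differed in whether both copies were open. Rpl3 had 19.6 and 13.8 with no peak at Rpl3l. Rpl10, whose product is needed to join the subunits, had 7.60 and 5.93 with no peak at Rpl10l. Rps27 had 5.45 and 6.93, lower than Rps27l, a gene known as a target of p53, with 13.7 and 9.69. Rpl36a had 8.63 and 4.61, against 35.5 and 18.9 at Rpl36al, whose window is shared. Rpl22, studied for its role in lymphocyte development, had 12.8 and 10.7. In the pairs of Rps27 and Rpl36a the copy with the l ending thus had the higher peak in both animals, and in those of Rpl3 and Rpl10 it had none. Rpl7 and Rpl7a, which are not close relatives despite their names, had 8.73 and 6.57, and 39.8 and 22.1.

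The 4 members on the X chromosome, Rpl10, Rpl36a, Rpl39 and Rps4x, were all in the lower part of the family. Their heights ran from 3.93 to 8.63 and from 3.30 to 5.93, against a median of 15.8 and 11.4 for the autosomal members with a peak. Over all protein-coding genes with a peak, the median was 3.80 and 3.08 on the X chromosome and 9.41 and 6.89 on the autosomes. Both animals are male and carry 1 X chromosome in each cell. Its part in these heights was not tested.

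Several ribosomal protein genes are mutated in Diamond-Blackfan anaemia, a failure of red cell production in humans, and 9 of them were listed here. All 9 had a peak in both animals, with a median height of 11.9 and 9.39. Rps24 had 23.5 and 12.3, and Rps19, the most often mutated of them in patients, 19.9 and 15. Rps7 (11.1 and 7.56), Rps10 (10.8 and 6.17) and Rpl35a (9.37 and 5.60) were lower, and Rps26 (5.47 and 8.85) was the only one higher in replicate 2. None of the 9 was among the 10 members with the highest mean height. The list does not hold every gene mutated in this disease, so this and the median describe the 9 only.

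**Figure D2:**
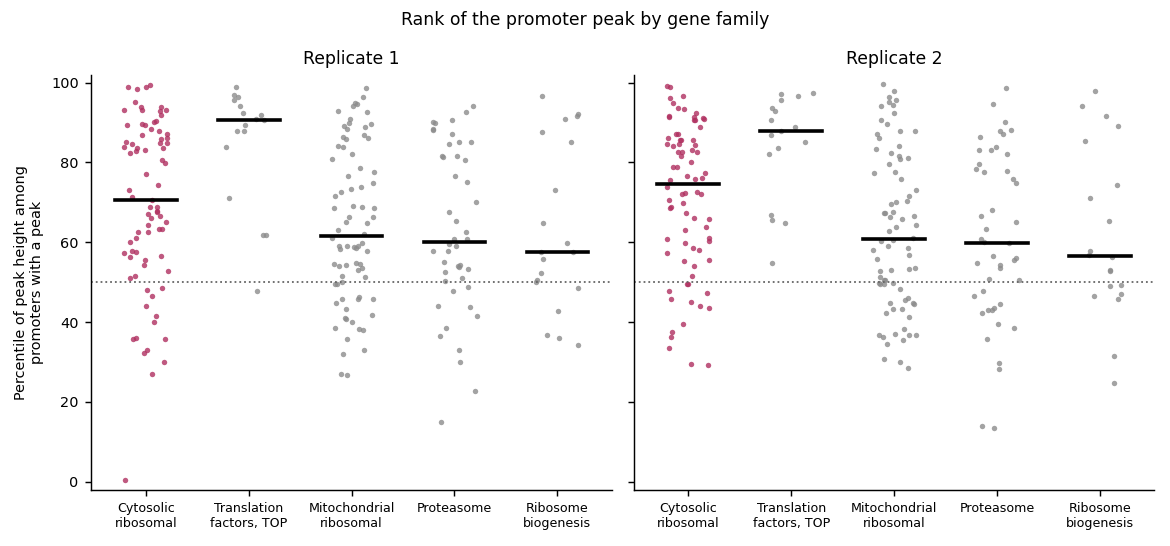
Percentile of the strongest promoter peak (y axis) among all promoters with a peak in replicate 1 (left) and replicate 2 (right); each point is a gene and each bar a family median. The cytosolic ribosomal protein genes have medians of 70.6 and 74.6, above those of the mitochondrial ribosomal (61.5 and 60.8), proteasome (60.1 and 59.9) and ribosome biogenesis genes (57.5 and 56.5) and below those of the translation factors with TOP messages (90.5 and 87.9); the dotted line is the median of all promoters.

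Set beside related families, the cytosolic genes stood above the mitochondrial ones, which had a median height of 12.2 and 8.50, and above the proteasome genes with 11.8 and 8.34. They stood below 17 translation genes whose messages carry TOP tracts, which all had a peak and a median of 23.6 and 14.6. That list includes Fau (29.2 and 18.2), which encodes a ribosomal protein as a fusion to a ubiquitin-like protein, as well as Eef2 (34.8 and 19.4), the translocation factor, and Npm1 (30 and 19.3), a nucleolar chaperone. Its lowest gene was Rack1, a small subunit component, with 8.52 and 7.50. Rps3a1, a small subunit gene outside the symbol pattern, had 25.2 and 15.9. The 20 ribosome biogenesis genes had 11.2 and 7.77, led by Nop56 (29.8 and 20), and the 14 genes of the mTOR pathway that controls TOP messages had 18.8 and 13.1, from Akt1s1 (30.3 and 22.1) down to Eif4ebp1 (0.618 and 0.425). No test was made between families, since genes of 1 map are not replicates.

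CpG content was high in this family and in related ones. The ratio of observed to expected CpG in the 300 bases around the start (250 before, 50 after) had a median of 0.855 in ribosomal protein genes, against 0.822 in mitochondrial ribosomal, 0.783 in proteasome, 0.855 in ribosome biogenesis and 0.903 in TOP translation genes and 0.556 in all protein-coding genes. The GC content was 56% in the ribosomal protein genes and in all genes. When all genes were divided into 5 equal classes by this ratio, 38 ribosomal protein genes fell in the most CpG-rich class and 24 in the next. In the richest class the ribosomal protein genes had a median height of 18.4 and 12.5, against 13.7 and 9.11 for all genes of the class. In the next class they had 13.6 and 10.6, against 11.6 and 8.13, and in the middle class 16 genes had 11.9 and 9.88, against 5.79 and 4.57. Within each of these classes the family median was thus above that of the class in both animals. Across the 78 members, height went with GC content (Spearman's rho 0.595 and 0.563), where all genes gave 0.188 and 0.138.

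The peaks were of ordinary width. The median width was 200 bp in both animals, against 200 and 220 bp over all promoters with a peak, and 78 of the 79 member peaks of replicate 1 and all 78 of replicate 2 had widths that are multiples of 20 bp, so widths resolve no finer step. Rpl23a (440 and 260 bp), Rps14 (200 and 460 bp) and Rps19 (200 and 440 bp) were widest on average, and Rpl7 (200 and 120 bp), Rpl5 (160 and 160 bp) and Rpl23 (160 and 160 bp) narrowest. The widest 3 differed by 180 bp or more between the animals. The surrounding stretch that passed the authors' false discovery rate of 0.05 was 1000 and 974 bp wide in the median, against 968 and 996 bp.

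The strongest peak mostly lay over the start, as in the related families. It covered the reference start in 61 of 79 and 65 of 78 ribosomal protein genes (77.2% and 83.3%), against 55.8% and 58.2% of all genes with a peak. The shares were 78.2% and 83.3% in mitochondrial ribosomal genes and 76.1% in both animals in proteasome genes. Its midpoint had a median of -27.5 and -37 bp, against -33.5 and -38.5 bp over all genes. In 13 genes it missed the reference start in both animals. In Rps25, used by some viral messages to start translation, the peak ran from 402 to 601 bp after the reference start in both animals, and the RefSeq start lies 575 bp after it. In Rpl35, which sits at the tunnel exit, it ran from 344 to 543 bp, with the RefSeq start at 493 bp. The peak of Rps10 began 85 bp and that of Rplp2 151 and 131 bp after the reference start, with RefSeq starts at 301 and 281 bp, and that of Rps23, a protein of the decoding centre, began 83 and 63 bp after it, with the RefSeq start at 164 bp. In each of these 5 genes the peak covered the RefSeq start.

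The pattern was different on the other side of the start. The peak of Rpl4 ended at -355 and -315 bp and did not reach the RefSeq start at 12 bp, and that of Rpl19 ended at -144 bp in both animals, over a further RefSeq start of the gene. Of the 11 genes that missed the reference start in both animals and have a RefSeq entry, 8 had the peak over a RefSeq start in both animals. Among all members with a RefSeq entry and a peak, 54 of 59 and 52 of 58 peaks covered a RefSeq start, against 44 and 47 that covered the reference start of the same genes; this comparison was chosen after the data were seen. As shares these are 91.5% and 89.7% at RefSeq starts and 74.6% and 81.0% at reference starts. Any RefSeq start of a gene was counted but only 1 reference start, so these are not like measures. With any annotated GENCODE start counted, the share was 86.1% and 89.7% of all members with a peak. Over all genes with a RefSeq entry and a peak, 63% and 65.4% covered a RefSeq start and 56.7% and 59.0% the reference start. The strongest peak lay at different places in the 2 animals in Rps26, from 187 to 346 bp in replicate 1 and from -193 to 6 bp in replicate 2, and in Rps19, from 110 to 309 bp and from -370 to 69 bp.

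**Figure D3:**
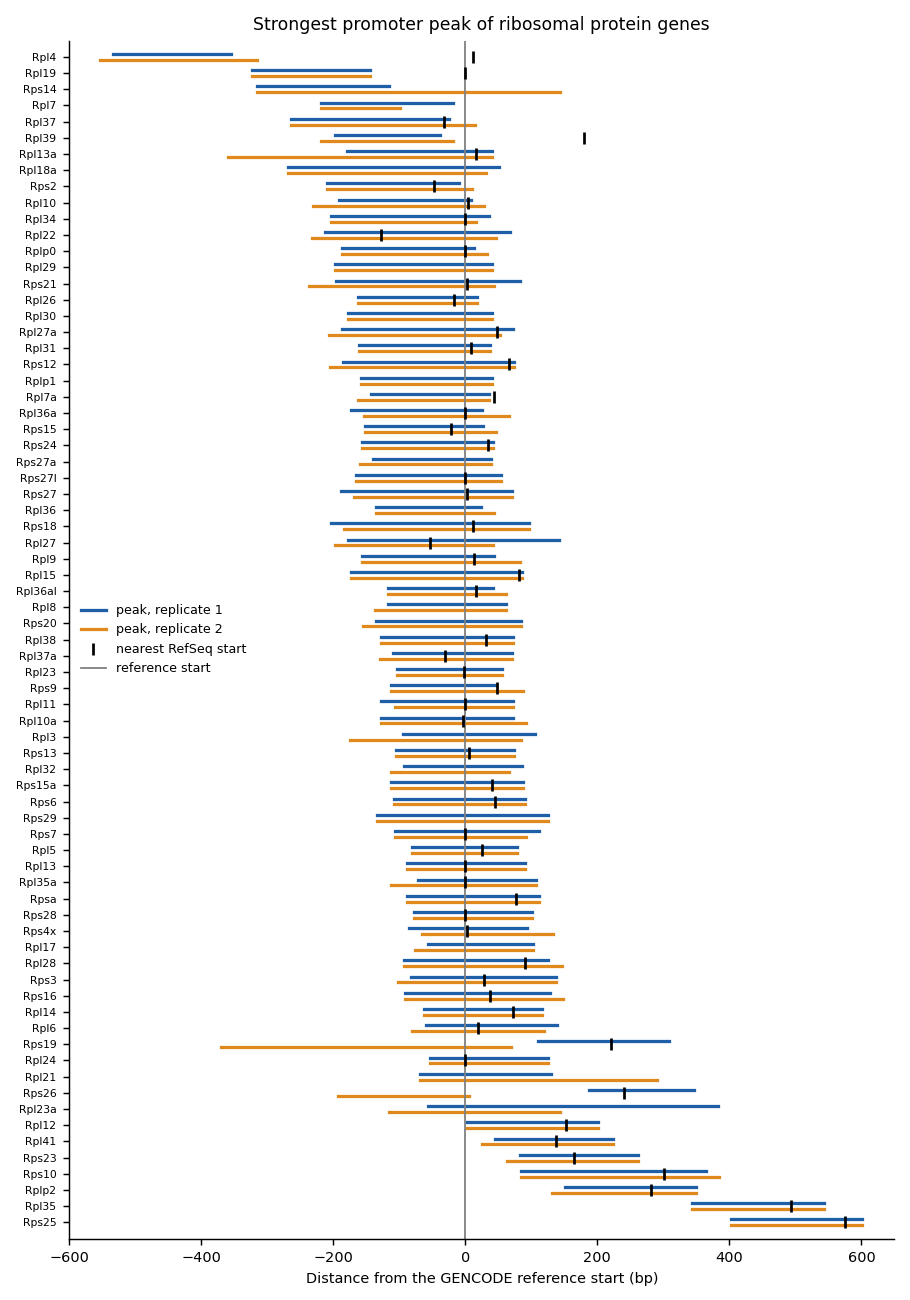
Strongest promoter peak of ribosomal protein genes with a peak in both animals (rows), drawn from its first to its last base against the distance from the GENCODE reference start (x axis, bp, transcription to the right). Rpl18, whose peak begins at -2830 bp, is left out; the peaks of Rps25 and Rpl35 at the bottom lie wholly after the reference start and over the RefSeq start (black tick), and the peak of Rpl4 at the top ends before both.

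Footprints were frequent at these promoters. A ribosomal protein gene with a peak had a median of 7 and 6 footprints within 250 bp of the start, against 5 and 5 over all genes. Set beside the 4439 and 3746 other genes whose peak height lay between the quartiles of the ribosomal protein genes, the 39 and 38 ribosomal protein genes in that range had the same medians as those other genes, 7 and 6. Rps23 (9 and 12), Rps26 (9 and 11) and Rpl9 (10 and 9) had most. Rpl35 had 0 in both animals within 250 bp of a reference start that its peak does not reach, and Rps4x and Rps25 had 2 each in both.

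A footprint lay over the reference start itself in 27 of 79 and 21 of 78 genes (34.2% and 26.9%), against 25% and 23.9% of all genes with a peak. The share was higher in mitochondrial ribosomal protein genes (35.9% and 39.7%) and in proteasome genes (43.5% and 47.8%). The start lay in a footprint in both animals in 19 of 78 ribosomal protein genes, and in 12 of these both edges of the footprint lay within 2 bp in the other animal. No share over all genes is set beside these counts, so they do not set the family apart. In Rpl36al it ran from -24 to 19 and 18 bp, in Rpl7a from -33 to 7 and 6 bp, and in Rps21 from -31 to 9 bp in both animals. In Rps15a it ran from -29 and -25 to 16 bp. Over the nearest RefSeq start a footprint lay in 28 of 59 and 22 of 58 genes, against 23 and 16 at the reference start of the same genes. These 47.5% and 37.9% stand beside 26.4% and 25.4% of all genes with a RefSeq entry and a peak, and beside 42% and 40.6% of the mitochondrial ribosomal ones.

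By distance, bases far upstream of the start lay in a footprint in more ribosomal protein genes than mitochondrial ribosomal, proteasome or all other genes. From 200 to 101 bp before the start, an average of 27.9% and 22.1% of the ribosomal protein genes had the base in a footprint, against 18.7% and 13.7% of mitochondrial ribosomal protein genes, 20% and 16.8% of proteasome genes and 18.3% and 15.6% of all other protein-coding genes with a peak. In the 50 bp before the start the order turned, with 35.8% and 37.0% of the ribosomal protein genes, 46.2% and 45.2% of the mitochondrial ones and 41.6% and 38.3% of the proteasome genes, and 26.9% and 26.1% of the others. From 50 to 99 bp after the start the mitochondrial genes were higher too, with 36.1% and 26.9%, against 28.4% and 19.1%. The ribosomal protein genes had a broad plateau, with a maximum at -77 bp in replicate 1 and -49 bp in replicate 2. The mitochondrial ones had a summit at -25 and -23 bp, with 50.6% and 48.7%. These profiles are not matched for peak height.

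**Figure D4:**
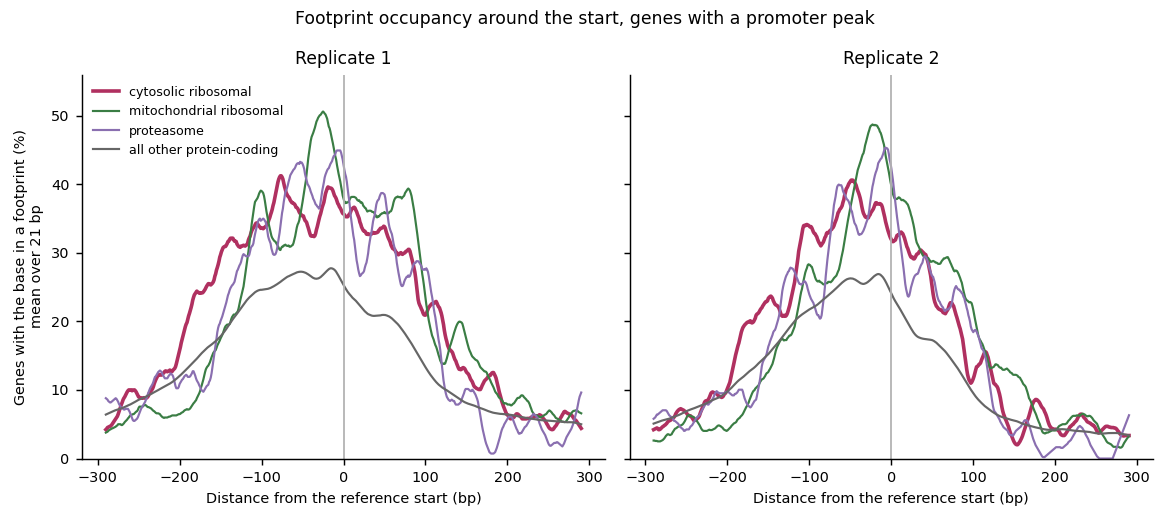
Share of genes with a promoter peak whose base at each distance lay in a footprint (y axis, percent, mean over 21 bp), by distance from the reference start (x axis, bp) in replicate 1 (left) and replicate 2 (right). The ribosomal protein genes reach 41.2% and 40.6% at -77 and -49 bp, and all other genes 27.7% and 26.9% at -15 and -16 bp.

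The start base was a cytosine in 24 of 81 ribosomal protein genes (29.6%), against 17.4% of all protein-coding genes, and a guanine in 34 (42%), against 39.1%. A cytosine at the reference start inside a run of at least 5 pyrimidines, bases before the start included, stood in 12 of 81 (14.8%), against 5.36% of all genes, 5.13% of mitochondrial ribosomal and 4.08% of proteasome genes. With the run counted from the start on, as in the message, a choice made after the data were seen, a cytosine followed by at least 4 pyrimidines stood in 10 of 81 (12.3%), against 2.25% of all genes, 5.13% of mitochondrial ribosomal genes and 0 of 49 proteasome genes. In the wider form, counting every annotated protein-coding start of a gene, also chosen afterwards, it stood in 30 of 81 (37.0%), against 12.3% of all genes, 7.69% of mitochondrial ribosomal and 10.2% of proteasome genes. At the RefSeq starts, also chosen afterwards, it stood in 14 of 61 (23.0%), against 5.87% of the genes with a RefSeq entry. The share therefore depended on which annotation gives the start, and in each of these countings it was above that of all genes. Of the 12 runs at reference starts, 6 of the longest are shown with 14 bases on both sides of the start, which is the middle letter. Capitals mark the run, which is cut off at the edge of the printed stretch. They lie in mm10 at chr17:24720096-24720124 (Rps2, plus strand), chr14:24490704-24490732 (Rps24, plus strand), chr6:115808733-115808761 (Rpl32, minus strand), chr15:34443208-34443236 (Rpl30, minus strand), chr9:64173361-64173389 (Rpl4, plus strand) and chr1:39367828-39367856 (Rpl31, plus strand).
Rps2: cgcggcgCCTCCCTCTTCTTCTTCTTCgg
Rps24: ggcagtgagcggTCCTCTTTTCCTCCTCT
Rpl32: cgccgccgccgCCTCTTCCTTCTTCCTCg
Rpl30: tgtgggagCTCCTTCCTTTCTCgctcccc
Rpl4: gtgacaagTCTTTCCTTTTCCTgtgggag
Rpl31: ccacaCCTCTTCCTCCTCgcctccccgtg
The runs of Rps2, Rps24, Rpl32, Rpl30, Rpl4 and Rpl31 were 20, 19, 17, 14, 14 and 13 bases long. The 12 genes with such a start had a median peak height of 20.1 and 12.9, and a footprint lay over the start in 4 and 3 of them.

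Motif letters in the same 300 bases (250 before, 50 after the reference start) were counted on both strands, with overlapping matches of 1 motif merged into 1 site. The letters CTCGCGA, the core of the site known for the zinc finger protein ZBTB33 (Kaiso), stood in 16 of 81 ribosomal protein promoters (19.8%), against 2.62% of all promoters, 3.85% of the mitochondrial ribosomal and 6.12% of the proteasome promoters. The letters hold 2 CpG, so the shares were also taken within CpG classes. In the most CpG-rich class they stood in 11 of 38 ribosomal protein promoters (28.9%), against 7.44% of all promoters of the class, and in the next class in 4 of 24 (16.7%), against 3.96%. The 16 genes divide evenly, with 8 large and 8 small subunit genes. Of the 16 sites, 10 were centred within 60 bp before the start, and 9 and 8 had their centre under a footprint (56.2% and 50%), 8 of them in both animals. The count in both animals has no like figure over all genes here. Over all genes with a peak in both animals, 44% and 34.1% of 575 such sites had their centre under a footprint. No core in the 16 genes overlapped a site of another motif counted here.

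Of these, 5 sites are shown with their neighbouring bases, because the same core stands upstream in genes of both subunits. Capitals mark the core, in some genes together with its overlapping match on the other strand. The core had its centre under a footprint in both animals in Rpl10a (chr17:28328525-28328552, plus strand), Rpl26 (chr11:68901531-68901558, plus strand), Rps6 (chr4:86857400-86857427, minus strand) and Rps15a (chr7:118116195-118116223, minus strand). The centre lay under no footprint in either animal in Rps9 (chr7:3703956-3703984, plus strand).
Rpl10a: acgggcaactCTCGCGAGaacgcgggct
Rpl26: ctccgagactCTCGCGAGatctcgcggc
Rps6: gccggctgttCTCGCGAGaacttagagc
Rps15a: gaccatgaagtCTCGCGAtagcgcttccg
Rps9: gattggcgtagTCGCGAGcggtgcgtgat
The core began at -33 bp in Rpl10a, -42 in Rpl26, -5 in Rps6, -24 in Rps15a and -26 in Rps9. The 16 genes had a median peak height of 19.2 and 11.5, against 13.9 and 10.8 for the members with a peak in both animals that lack the letters, and ranged from 4.53 to 39.8 and from 3.26 to 22.1, so the groups overlap.

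The letters CCGGAAG, the core bound by GABP and other ETS factors, stood in 28 of 81 ribosomal protein promoters (34.6%), against 11.2% of all promoters. The mitochondrial ribosomal (37.2%) and proteasome promoters (34.7%) had like shares. In the most CpG-rich class the letters stood in 34.2% of the ribosomal protein promoters, against 21.4% of all promoters of the class. In the next class the shares were 29.2% and 19.1%, and in classes 1 to 3, the least CpG-rich, 42.1% and 5.17%. Most of the 19 ribosomal protein genes in classes 1 to 3 lie in the middle class, while all genes fill these classes evenly. CpG content is therefore not matched in that last comparison. Of 32 such sites at members with a peak in both animals, 50% and 56.2% had their centre under a footprint, against 69.7% and 72.7% of 33 sites in the mitochondrial family and 45.4% and 44.3% of 2659 sites over all genes. ATGGCGG, the core of YY1, stood in 13 ribosomal protein promoters (16.0%), against 5.12% of all promoters and 20.5% of the mitochondrial ones. In the most CpG-rich class it stood in 21.1%, against 10.6% of all promoters of the class. In the next class the shares were 16.7% and 8.32%, and in classes 1 to 3, again not matched for CpG content, they were 5.26% and 2.22%. GCGCATG of NRF1 stood in 11.1%, against 4.98%, and TGACGTC of the cyclic AMP response element in 9.88%, against 4.07%. CACGTG, the E-box, stood in 12.3%, against 7.69%, and GGGCGG of the SP and KLF factors in 53.1%, against 45.4%. In mitochondrial ribosomal and proteasome promoters GCGCATG stood in 10.3% and 12.2%, and TGACGTC in 3.85% and 6.12%. CACGTG stood there in 6.41% and 14.3%, and GGGCGG in 48.7% and 61.2%.

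The CCAAT letters of NF-Y stood in 25 ribosomal protein promoters (30.9%), below the 38.4% of all promoters, and TATAAA in 8 (9.88%), against 12.7%. Of the 9 TATAAA sites, 4 and 6 had their centre under a footprint (44.4% and 66.7%), against 12.1% and 10.6% of 1058 such sites over all genes with a peak. Their median position was 5 bp, against -93.5 bp for the 3176 sites of all genes, with or without a peak. The shares thus compare sites at unlike distances from the start and are not matched for position. These are few sites, and that of Rps2 from -30 bp was under a footprint in both animals, as were those of Rpl3 and Rplp0, from 23 and 17 bp. Of the 200 sites of all 9 motifs in the ribosomal protein promoters, 4 overlapped a site of another motif, and 71 of 81 promoters (87.7%) held at least 1 motif, against 78.9% of all promoters, 88.5% of the mitochondrial ribosomal and 93.9% of the proteasome promoters. A match is a run of letters and does not show that a factor was bound.

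**Figure D5:**
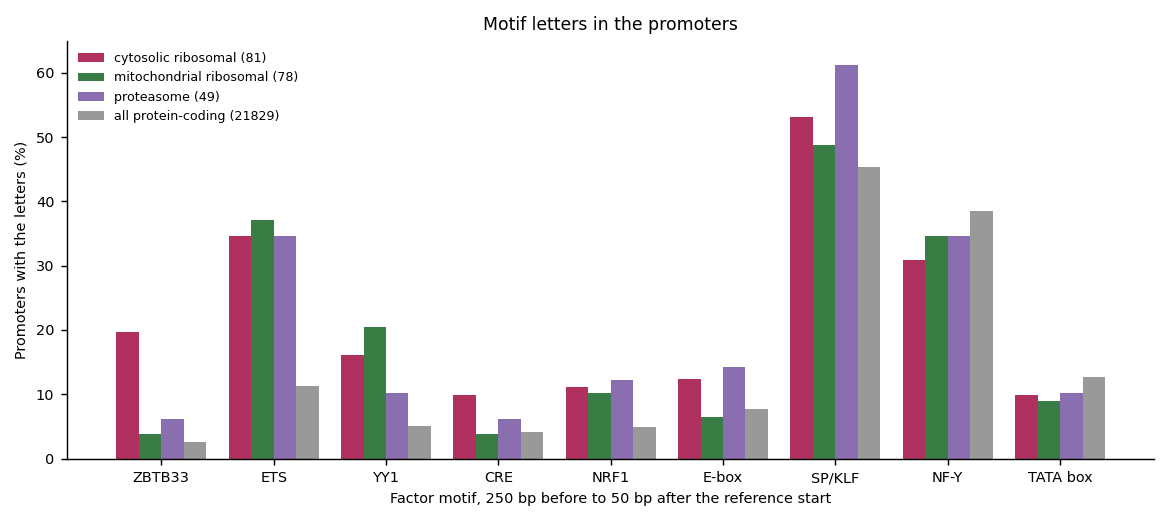
Share of promoters (y axis, percent) that hold the letters of 9 factor motifs in the 250 bp before to 50 bp after the reference start, in ribosomal protein, mitochondrial ribosomal protein and proteasome genes and in all protein-coding genes. The ZBTB33 core stands in 19.8% of the ribosomal protein promoters and in 2.62% of all promoters, while the ETS core has like shares in the 3 families (34.6%, 37.2% and 34.7%) and 11.2% in all promoters.

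Ribosomal protein genes are known as hosts of small nucleolar RNAs (snoRNAs), which are cut from introns and guide the modification of ribosomal RNA. In the annotation 29 of 81 contained at least 1 snoRNA on the same strand, 56 snoRNAs in all, against 1.17% of all protein-coding genes. Rpl4 held 5 and Rpl13a held 4. The 29 hosts had a median peak height of 19.5 and 12, against 14.9 and 10.7 for the other 49 members with a peak in both animals. The ranges overlap, since Rpl4, Rpl6, Rpl39 and Rpl23a, among the lowest members, are hosts as well.

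A start of another gene on the opposite strand lay within 1000 bp upstream of 16 of 81 ribosomal protein genes (19.8%), against 11.3% of all genes. The median number of peaks outside any promoter window, within a gene or up to 10000 bp from its ends, was 1 in both animals for the ribosomal protein genes and likewise for the mitochondrial ribosomal and proteasome genes, against 2 and 1 for all genes. Processed copies of messages are annotated as processed pseudogenes, and 293 of these carry a ribosomal protein symbol with a -ps ending. Of the 293, 11 and 7 (3.75% and 2.39%) overlapped a peak, against 5.98% and 3.31% of 9943 other processed pseudogenes. Any ribosomal protein copies under other symbols are counted among the 9943. The tallest peak over the 293 reached 2.38 and 1.49, below the lowest height of a member with a peak in both animals, 3.20 and 3.26. Rps7-ps1 (1.51 and 1.49), Rps7-ps2 (2.38 and 1.05), Rpl19-ps3 (1.92 and 1.29) and Rps15-ps2 (0.184 and 0.148) had one in both animals. Reads from near-identical copies can be placed on the wrong copy or dropped, depending on alignment settings that the sources used here do not state. Its part in these heights was not tested.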

How the data were processed

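The DNase-seq files of both animals were used as deposited, on mm10 per the labels. The authors called peaks in each animal alone and deposited a signal value (height) per peak, whose scaling is not given, in a larger and a smaller list. The larger list was used here. They deposited footprints with a constant p-value of 0.01, read as the threshold of the call, and stretches whose cut rate has a false discovery rate (a p-value corrected for many tests) below 0.05. Which aligner and callers were run is not given in the sources used here. Depth is unknown, so no counting interval was computed.

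The members and lists were chosen with earlier results of these data known. Genes came from GENCODE M21 and RefSeq starts from GRCm38.p6. A gene's peak was the tallest one touching its promoter windows. The reference start was that of the APPRIS principal transcript with the best support level, then the lowest transcript name. Rank was taken among protein-coding genes with a peak. Sequences were read from the reference genome, with motifs matched exactly. Nothing was tested, since 1 group of 2 animals has no contrast; spread is the SD over the animals, n = 2.

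Genes were named by a rule: those lacking a peak, the 10 highest and 5 lowest, the 3 widest and narrowest peaks, extremes in footprint number, up to 8 peaks off the start, paralog pairs, stalk and Diamond-Blackfan anaemia genes, Rpsa, Rps6, and extremes of other lists. Any other gene was named after its values were seen. Alternatives were the promoter window, peak list, peak choice, start annotation, overlap and distance limits, members left out and each animal alone. Python 3.11.15, numpy 2.4.6, pandas 2.3.3, scipy 1.17.1 and matplotlib 3.10.9 were used, and the overlap code was tested on simulated data. Chromosome 18 sequences are not shown. A few single genes are not reported here; they stay in the counts and medians and are left out of the plots that name genes.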

Additional observations from a re-analysis of the deposited data

How the results depend on the processing

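For results with a value in each animal, 33 alternatives moved the mean by less than the SD between the animals and 19 by more. The SD of height takes in the general difference in height between the animals, and the SD of width was 0. This tally is therefore no measure of stability. For shares of sequence, which are the same in both animals, 8 stayed within the 95% Wilson interval of the reported share and 2 did not. With 2 animals, either one alone lies within the SD of their mean by construction, so those values say nothing about stability. The share with a peak, 96.9% on average, was 96.0% over members with unshared windows and 100% without paralogs ending in l. The percentile of 72.6 became 76.2 with the peak nearest to the start. The width of 200 bp became 987 bp for the merged stretch. The midpoint, at -32.25 bp, moved to -12.5 bp with the most 5′ start and to -51 bp with the nearest RefSeq start, an alternative added after seeing the data. The share of starts in a footprint, 30.6%, was 65% within 10 bp (67.1% and 62.8% in the animals, against 49.8% and 47.1% of all genes) and 42.7% at RefSeq starts, also added later. The number of footprints, 6.5, was 4 within 100 bp. The centre of the profile, at -28.8 bp, moved to -16.0 bp with the most 5′ start and to -19.8 bp with midpoints. The pyrimidine share of 14.8% became 49.4% within 10 bp (30.6% of all genes), 37.0% over any start, 23.0% at RefSeq starts and 12.3% with the run counted from the start on, the last 3 added later; the share of 23.0% lies within the interval though over 1.5 times the reported one. Of ZBTB33 sites, 53.1% lay under a footprint on average, against 65.4% within 100 bp before the start, 46.4% with the most 5′ start and 62.5% counting any base. For ETS sites the 53.1% became 48.1% within 100 bp and 60.9% counting any base. The number of distal peaks, 1, was 5.5 at 50000 bp. Pseudogenes with a peak, 3.07%, were 7.51% within 1000 bp and 1.19% in the smaller list. The cause was not tested, beyond wider or narrower limits taking in more or fewer features. No paired analysis was possible because there is 1 group. The F1 mice carry CAST alleles that were not read, and height has no stated scale, so levels were compared within an animal only.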
